A study of Mus musculus with 11 samples.

Results

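Among the 25677 genes counted in mouse kidney, 38 were detected in every C57BL/6 control kidney and nearly absent or strongly reduced in every MRL/lpr kidney. This held with or without DNase I treatment. A gene was taken when each of the 3 control kidneys held at least 50 counts and the lowest control value was at least 4 times the highest value of the 8 MRL/lpr kidneys, in CPM, the count of a gene scaled to the total count of its library. Symbols that start with H2-, Rpl, Rps, Trim, Serpina, Cyp, Slc, Gst or Ugt were left out, which removed 8 further genes. These values chose the genes, so the difference between control and MRL/lpr kidneys is given for them as a description, with no test.

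The study sequenced kidney RNA of female mice at 21 weeks of age in 3 groups, each kidney a library of its own. The 3 Ctr kidneys came from C57BL/6 mice (C57B6 in the labels), the 4 Lpr kidneys from MRL/lpr mice left without the enzyme, and the 4 DNase kidneys from MRL/lpr mice with daily injections of DNase I, begun at 17 weeks. MRL/lpr mice carry the lpr mutation of Fas on the MRL background and develop a lupus-like nephritis, while DNase I is an enzyme that cuts the DNA of neutrophil extracellular traps. All 8 MRL/lpr kidneys share both the MRL background and the disease, and the controls are of another strain, so strain, lpr and disease cannot be told apart here. The libraries held between 33469858 and 38460873 counts. Over the 38 genes the summed level was 623 to 659 CPM in Ctr, 46.6 to 60.6 CPM in Lpr and 54.6 to 66.4 CPM in DNase kidneys. Fas itself, counted over the whole gene, lay between 5.62 and 7.66 CPM in Ctr, between 5.89 and 7.99 in Lpr and between 5.82 and 7.19 in DNase kidneys, and so did not separate the strains. The Lpr replicate 3 library was below all 7 other MRL/lpr libraries for 7 of the 38 genes, among them Atp4a, Ezh1 and D2hgdh. It was above all 7 for 10, among them Ttr, Fgb and Fgl1. Each other MRL/lpr library was the highest for 1 to 6 of the 38. The same counts over all genes were not taken.

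Inbred mouse strains differ in many genes through inherited sequence differences, and a gene that one strain does not transcribe stays low whatever the health of the organ. A diseased kidney also loses transcripts when tubule cells are injured and gains those of the blood cells that enter it. In whole tissue, fewer cells of a type and less RNA per cell cannot be told apart. Long noncoding RNAs (lncRNAs) are transcripts without a known protein, many of them of unknown use.

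The 38 genes were 19 protein-coding genes, 18 lncRNAs and LOC68395, for which no position or kind was found. Among the 12580 genes with at least 50 counts in every Ctr kidney, 96.7% were protein coding and 3.02% were lncRNAs. The lncRNA share of the 38 genes was 47.4%. The 8 genes left out by symbol were all protein coding, and no symbols were left out of the 12580. Levels of the 38 genes were lower (a median Ctr mean of 4.90 CPM, beside 26.8 CPM in the 12580). The deposited gene length had a median of 1773 bases in the 38 genes and of 3673 bases in the 12580. The mean level left in the 8 MRL/lpr kidneys ranged from 0.0703% to 21.2% of the Ctr mean, with a median of 6.31%. It was under 2% for 8 genes, under 5% for 17 and under 10% for 25, and 13 genes kept 10% or more, so that some genes were nearly absent and others were reduced.

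**Figure D1:**
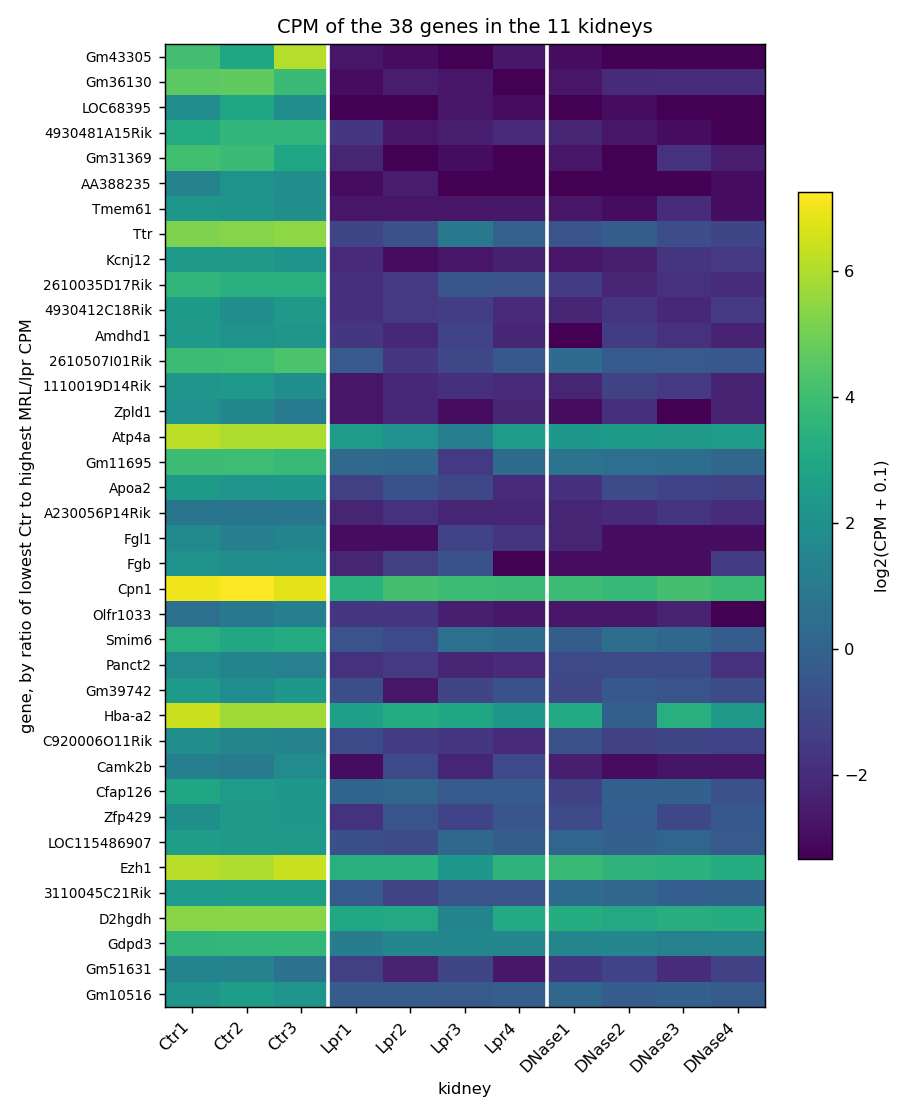
Heat map of the 38 genes (rows, by falling ratio of the lowest Ctr to the highest MRL/lpr value) in the 11 kidneys (columns), coloured by log2(CPM + 0.1). The 3 Ctr columns are brighter than the 8 MRL/lpr columns in every row, as the choice of genes requires, and Lpr and DNase columns look alike.

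Some sequences of the genes described below are shown first, all from the mouse reference assembly GRCm38 (mm10). It is the genome of the control strain C57BL/6J, and no MRL sequence was compared. The alpha globin gene Hba-a2 was reduced in MRL/lpr kidneys while its twin Hba-a1 was not. Over the 429 bases of their coding sequences the twins differ at 1 base, C381T, counted from the A of the start codon, with the base of Hba-a1 first, and both codons give the same amino acid. Below are the 61 bases around it, with the differing base in capitals, for Hba-a1 (chr11:32284313-32284373, plus strand) and for Hba-a2 (chr11:32297130-32297190, plus strand), both within the coding part of an exon.
Hba-a1: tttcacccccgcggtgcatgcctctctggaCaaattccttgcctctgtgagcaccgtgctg
Hba-a2: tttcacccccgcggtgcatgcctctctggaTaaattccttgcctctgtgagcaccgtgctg

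The next sequences are the 200 bases just before a RefSeq transcript start of 5 genes, read 5′ to 3′ on the strand of the gene, on GRCm38.p6. For Cpn1 and Amdhd1 that start lies inside the outermost gene positions given here, so part of the window is within the gene as annotated. They are Gm43305, the gene with the largest ratio (chr14:54297489-54297688, minus strand), Cpn1 (chr19:43986521-43986720, minus strand) and Atp4a (chr7:30712009-30712208, plus strand), abundant protein-coding members, and the neighbours Amdhd1 (chr10:93540034-93540233, minus strand) and Hal (chr10:93488568-93488767, plus strand), which differed in opposite directions. Capitals mark a match to TATAAA, the core of the motif that binds the TATA-binding protein, on either strand.
Gm43305: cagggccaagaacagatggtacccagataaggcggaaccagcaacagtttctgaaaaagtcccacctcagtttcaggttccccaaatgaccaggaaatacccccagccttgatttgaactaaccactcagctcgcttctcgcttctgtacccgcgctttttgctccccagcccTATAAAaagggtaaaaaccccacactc
Cpn1: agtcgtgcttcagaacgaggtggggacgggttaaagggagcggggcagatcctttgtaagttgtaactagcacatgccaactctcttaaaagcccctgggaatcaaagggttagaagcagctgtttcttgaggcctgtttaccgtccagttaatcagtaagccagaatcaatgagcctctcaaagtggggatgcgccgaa
Atp4a: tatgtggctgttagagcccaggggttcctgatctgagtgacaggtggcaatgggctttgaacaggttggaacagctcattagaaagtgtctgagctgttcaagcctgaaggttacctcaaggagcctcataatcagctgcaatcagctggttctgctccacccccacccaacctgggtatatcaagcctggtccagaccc
Amdhd1: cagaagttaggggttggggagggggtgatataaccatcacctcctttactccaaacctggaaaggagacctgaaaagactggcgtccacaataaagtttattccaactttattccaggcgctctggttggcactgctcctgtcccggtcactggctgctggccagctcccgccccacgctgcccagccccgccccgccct
Hal: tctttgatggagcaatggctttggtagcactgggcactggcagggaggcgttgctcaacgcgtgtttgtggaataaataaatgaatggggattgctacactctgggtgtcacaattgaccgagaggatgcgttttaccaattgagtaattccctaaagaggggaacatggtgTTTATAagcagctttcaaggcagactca

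A window from 250 bases before to 50 bases after the start was found for 34 of the 38 genes. TATAAA stood on either strand in 5 of the 34, which is 14.7%, beside 15.7% of all 27025 genes with a window. The 5 were Gm43305, Gm36130, 2610035D17Rik, Apoa2 and C920006O11Rik, and in Gm43305 the motif began 27 bases before the start. CAAAGTCCA, a site of hepatocyte nuclear factor 4, was in none of the 34 windows and in 0.555% of all genes. The palindromic site of hepatocyte nuclear factor 1 was in none of the 34 and in 0.0111% of all genes, each motif being searched on both strands. These are matches of letters, and the shares of the members lay near those of all genes.

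Genes for plasma proteins, most of them made mainly by the liver, formed the first group. Cpn1 encodes the catalytic subunit of carboxypeptidase N, which removes the last arginine or lysine from kinins and complement anaphylatoxins. It was the most abundant of these genes, at 71.1 ± 10.8 FPKM, the level per length of the gene (mean ± SD, n = 3), in Ctr. Cpn1 (chr19:43956307-43986551, minus strand) stood at 128, 152 and 112 CPM in the Ctr kidneys. In the Lpr kidneys it stood at 10.6, 17.4, 15.1 and 14.6 CPM, and in the DNase kidneys at 15.1, 13.4, 17.3 and 14.8 CPM. The 8 MRL/lpr kidneys fell in 1 narrow band, with 11.3% of the Ctr mean left.

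Ttr encodes transthyretin, the carrier of thyroxine and of retinol-binding protein. It stood at 36.7, 39.6 and 44.1 CPM in the Ctr kidneys. Its Lpr values were 0.362, 0.511, 1.86 and 0.908 CPM, and in the DNase kidneys at 0.575, 0.763, 0.471 and 0.364 CPM. All MRL/lpr values were near the bottom of the scale, with 1.81% of the Ctr mean left, and Lpr replicate 3 was the highest of them.

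Apoa2 encodes apolipoprotein A-II, a protein of high-density lipoprotein particles. It stood at 5.35, 4.51 and 4.87 CPM in the Ctr kidneys. Among Lpr kidneys it stood at 0.306, 0.538, 0.389 and 0.146 CPM, and in the DNase kidneys at 0.172, 0.452, 0.34 and 0.312 CPM. The ranges of the Lpr and DNase kidneys overlapped, with 6.76% of the Ctr mean left over both.

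Fgb, the beta chain of fibrinogen, and Fgl1, a secreted fibrinogen-like protein, had lower levels in Ctr. Fgb stood at 4.07, 3.76 and 3.42 CPM in Ctr, and was between 0 and 0.527 CPM in Lpr and between 0.0262 and 0.26 CPM in DNase kidneys. Fgl1 stood at 3.10, 2.24 and 2.63 CPM in Ctr, and was between 0.0269 and 0.333 CPM in Lpr and between 0.026 and 0.115 CPM in DNase kidneys. Lpr replicate 3 was the highest MRL/lpr kidney for Fgb, Fgl1 and Ttr, while Apoa2 was highest in Lpr replicate 2.

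A list of 24 genes known from hepatocytes, written after the 38 genes had been seen, was set beside this group. It has 23 genes in the data, 4 of them members (Ttr, Apoa2, Fgb and Fgl1). Without these 4 its summed level ranged from 324 to 455 CPM in Ctr, from 282 to 757 CPM in Lpr and from 448 to 968 CPM in DNase kidneys, and so overlapped between all groups. Most of that sum was Apob, at 324 ± 63.7 CPM in Ctr and the rest differed widely in level. Fga, Alb and Fgg had Ctr means of 25.4, 13.2 and 9.62 CPM, while Ahsg, Cps1 and Tat had means of 0.035, 0.0186 and 0.00875 CPM. Of 13 listed genes that were tested between Lpr and Ctr, Afp and Fgg were lower and Apoh, apolipoprotein H, was higher (6.96 ± 0.78 on the log2 scale, adjusted p = 0.00113, edgeR). Apoh stood at 0.105, 0 and 0 CPM in Ctr. Over the 8 MRL/lpr kidneys it ranged from 1.72 to 6.41 CPM, the opposite of Apoa2. Among the other Apoa genes, Apoa4 went the same way as Apoa2, with means of 7.82, 2.06 and 1.80 CPM in Ctr, Lpr and DNase. Its log2 fold change was -1.97 ± 0.39 (adjusted p = 0.0143, edgeR) between Lpr and Ctr, under the threshold of 2. Between DNase and Ctr it was called, at -2.22 ± 0.44 (adjusted p = 0.00607, edgeR). Apoa1 had lower means too, of 0.737, 0.217 and 0.280 CPM, without a call, and Apoa5 was near 0 throughout. Alb, serum albumin, was at 13.2 ± 2.77 CPM in Ctr (n = 3), 4.24 ± 2.00 in Lpr and 6.75 ± 0.482 in DNase (n = 4 each). Its log2 fold change was -1.65 ± 0.41 (SE) between Lpr and Ctr, with an adjusted p of 0.036 in edgeR's quasi-likelihood test, and did not reach the fold change threshold of 2 on the log2 scale, other than without Lpr replicate 3 (-2.004, adjusted p = 0.00742).

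Enzymes of metabolism formed the second group. D2hgdh encodes the mitochondrial dehydrogenase that oxidises D-2-hydroxyglutarate. It stood at 40.8, 40.8 and 41.4 CPM in the Ctr kidneys. In the Lpr kidneys it stood at 8.00, 8.12, 2.64 and 8.76 CPM, and in the DNase kidneys at 9.23, 8.25, 9.55 and 9.15 CPM. Lpr replicate 3 lay far below the other MRL/lpr kidneys, which were close together, and 19.4% of the Ctr mean was left.

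Gdpd3 encodes a membrane-bound phosphodiesterase with lysophospholipase D activity, and it kept the largest share of the 38 genes, 21.2%. It stood at 12.3, 12.5 and 12.6 CPM in the Ctr kidneys. Its Lpr values were 2.06, 2.85, 2.80 and 2.90 CPM, and in the DNase kidneys at 2.73, 2.85, 2.30 and 2.57 CPM. The reduction was thus about even over the 8 MRL/lpr kidneys.

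Amdhd1 encodes imidazolonepropionase, which acts in the breakdown of histidine. It stood at 5.14, 4.27 and 4.48 CPM in the Ctr kidneys. Among Lpr kidneys it stood at 0.223, 0.135, 0.333 and 0.117 CPM, and in the DNase kidneys at 0, 0.254, 0.183 and 0.104 CPM. Few reads were left in any MRL/lpr kidney, 3.64% of the Ctr mean.

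The gene beside Amdhd1 was one that differed the other way. Hal encodes histidine ammonia-lyase, the first enzyme of the same pathway, and lies 6576 bases from Amdhd1 on chromosome 10 (chr10:93488768-93516761, with Amdhd1 at chr10:93523338-93540111). Hal stood at 0.289, 0.0896 and 0.236 CPM in the Ctr kidneys, at 11.6, 13.6, 3.94 and 15.2 CPM in the Lpr kidneys and at 3.51, 9.24, 7.32 and 8.84 CPM in the DNase kidneys. Every MRL/lpr kidney was above every Ctr kidney.

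Hal, which is not one of the 38 genes, was tested. Its log2 fold change was 5.67 ± 0.59 (SE, adjusted p = 0.000781, edgeR) between Lpr and Ctr and 5.01 ± 0.48 (adjusted p = 9.2e-05, edgeR) between DNase and Ctr. These comparisons share the Ctr kidneys. Of the other enzymes of the pathway, Uroc1, urocanase, which acts between Hal and Amdhd1, was at 71.2 ± 16.8 CPM in Ctr and 18.1 ± 6.19 in Lpr, a log2 fold change of -2.04 ± 0.28 (adjusted p = 0.00276, edgeR). This lay at the fold change threshold, and was -1.94, -1.92, -1.996 and -1.87, no longer past it, without Ctr replicate 1, Ctr replicate 2, Lpr replicate 1 and Lpr replicate 3. Between DNase and Ctr that of Uroc1 was -1.80 ± 0.21 (adjusted p = 0.000311, edgeR), short of the threshold on the fold change. Ftcd, which acts after Amdhd1, was at 4.45 ± 1.42 CPM in Ctr and 1.98 ± 0.946 in Lpr (log2 fold change -1.19 ± 0.43, adjusted p = 0.141, edgeR).

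**Figure D2:**
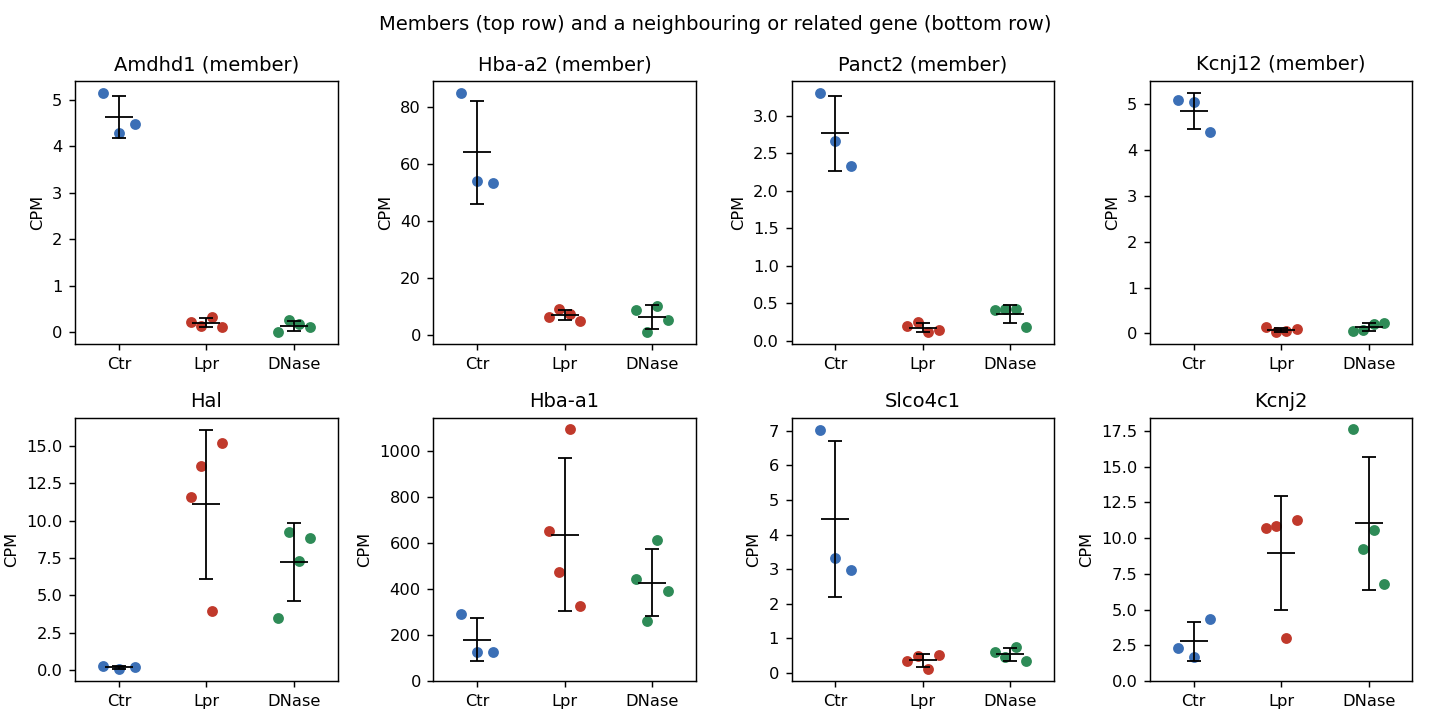
Level in CPM of 4 members (top row) and, under each, a neighbouring or related gene (bottom row), in Ctr (3 kidneys), Lpr (4) and DNase (4). Points are kidneys and bars are mean ± SD. Hal, Hba-a1 and Kcnj2 have higher means in both MRL/lpr groups than in Ctr while the member above them is low, and Slco4c1 is lower together with Panct2.

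Ion transport proteins formed the third group. Atp4a encodes the catalytic subunit of the H+/K+-ATPase, known as the proton pump of the stomach and also found in collecting duct cells of the kidney. It stood at 74.2, 61.1 and 60.8 CPM in the Ctr kidneys (chr7:30712209-30725534, plus strand). In the Lpr kidneys it stood at 5.63, 3.98, 2.25 and 5.66 CPM, and in the DNase kidneys at 4.89, 5.26, 5.20 and 5.56 CPM. The DNase kidneys were close together, Lpr replicate 3 was the lowest kidney, and 7.35% of the Ctr mean was left.

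The other pump genes had low levels. Atp4b, the second subunit of the gastric pump, was at 0 in 10 of the 11 kidneys and at 0.0295 CPM in Ctr replicate 3. Atp12a, the catalytic subunit of the colonic form, was at 1.34 ± 1.25 CPM in Ctr, 1.12 ± 0.299 in Lpr and 0.902 ± 0.356 in DNase kidneys (adjusted p = 0.847 for Lpr against Ctr, edgeR). Of 9 collecting duct markers none was called between Lpr and Ctr or between DNase and Ctr, beside 5.78% and 6.01% of all genes tested. Their summed level ranged from 632 to 1183 CPM in Ctr and from 697 to 1153 CPM in Lpr kidneys. The level of this segment's markers thus overlapped.

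Kcnj12 encodes Kir2.2, an inward rectifier potassium channel. It stood at 5.09, 5.05 and 4.40 CPM in the Ctr kidneys. In the Lpr kidneys it was between 0.0269 and 0.139 CPM, and in the DNase kidneys between 0.0575 and 0.234 CPM, with 2.31% of the Ctr mean left. Of 13 other Kcnj genes, 10 were tested, and 0 were called between Lpr and Ctr, beside 1 (Kcnj3, higher) between DNase and Ctr.

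Kcnj2, which encodes the closely related channel Kir2.1, was at 2.77 ± 1.36 CPM in Ctr, 8.96 ± 3.96 in Lpr and 11.1 ± 4.65 in DNase kidneys. Its log2 fold change was 1.64 ± 0.49 (adjusted p = 0.0732, edgeR) between Lpr and Ctr and 1.90 ± 0.38 (adjusted p = 0.0066, edgeR) between DNase and Ctr, both under the fold change threshold. The abundant tubule channels Kcnj1, Kcnj10, Kcnj15 and Kcnj16 had log2 fold changes between -0.20 and 0.00 between Lpr and Ctr, with adjusted p from 0.791 to 0.995 (edgeR), and no direction is read from them.

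Chromatin, gene regulation and signalling formed the fourth group. Ezh1 encodes one of the alternative methyltransferases of Polycomb repressive complex 2, which marks histone H3 at lysine 27. Ezh1 stood at 69.7, 63.3 and 82.5 CPM in the Ctr kidneys. Its Lpr values were 10.1, 10.2, 4.91 and 11.7 CPM, and in the DNase kidneys at 13.7, 11.8, 10.7 and 9.23 CPM. All MRL/lpr values lay far below Ctr, with 14.3% of the mean left, and Lpr replicate 3 was the lowest.

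Ezh2, the other methyltransferase of the complex, was at 4.74 ± 0.551 CPM in Ctr, 8.95 ± 1.13 in Lpr and 6.52 ± 0.547 in DNase kidneys, a log2 fold change of 0.89 ± 0.22 (adjusted p = 0.0349, edgeR) between Lpr and Ctr and of 0.37 ± 0.15 (adjusted p = 0.122, edgeR) between DNase and Ctr. Zfp429, a zinc finger gene, kept 10.7% of its Ctr mean of 4.61 CPM. Camk2b, the beta subunit of calcium/calmodulin-dependent kinase II, kept 5.85% of 2.5 CPM. Of 9 other Camk genes 1 was called between Lpr and Ctr, the T cell kinase Camk4, which was higher (2.31 ± 0.54 on the log2 scale, adjusted p = 0.0285, edgeR), a call lost when any 1 of the 3 Ctr libraries or Lpr replicate 2 was left out (adjusted p from 0.0535 to 0.128).

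Hba-a2, one of 2 genes for alpha globin, was the member with the highest level per length, 114 ± 32.1 FPKM in Ctr (n = 3). It stood at 85.0, 54.0 and 53.3 CPM in the Ctr kidneys. Among Lpr kidneys it stood at 6.19, 9.15, 7.41 and 4.86 CPM, and in the DNase kidneys at 8.65, 0.876, 10.1 and 5.02 CPM. DNase replicate 2 was the lowest and 10.2% of the Ctr mean was left.

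Hba-a1, which lies 12005 bases away on chromosome 11, stood at 289, 124 and 125 CPM in the Ctr kidneys, at 649, 474, 1092 and 324 CPM in the Lpr kidneys and at 442, 260, 611 and 392.5 CPM in the DNase kidneys. Hba-a2 was therefore between 22.7% and 30.2% of the reads counted for both genes in Ctr, and between 0.336% and 1.92% in the 8 MRL/lpr kidneys. Hba-a1 had a log2 fold change of 1.82 ± 0.50 (adjusted p = 0.0549, edgeR) between Lpr and Ctr and of 1.16 ± 0.35 (adjusted p = 0.0444, edgeR) between DNase and Ctr, and was not called.

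The beta globin genes also had higher means in Lpr, without passing the test. Hbb-bs was at 378 ± 183 CPM in Ctr and 713 ± 377 in Lpr, and Hbb-bt at 50.8 ± 30.5 and 138 ± 72.9, with adjusted p of 0.332 and 0.147 (edgeR). Of the 100-base windows in the annotated transcripts of Hba-a2, 79.5% also occur in Hba-a1, and of the 330 windows in the coding sequence 49 hold the differing base shown above. How reads that match both genes were counted is not given in the sources used here, and the part of this in the values was not tested.

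The remaining protein-coding genes formed a mixed group. Smim6, a small membrane protein, stood at 10.2, 7.71 and 9.06 CPM in the Ctr kidneys, at 0.557, 0.404, 1.36 and 1.23 CPM in the Lpr kidneys and at 0.776, 1.27, 1.07 and 0.754 CPM in the DNase kidneys. Cfap126, a protein of motile cilia, stood at 7.43, 5.44 and 4.84 CPM in the Ctr kidneys, at 0.975, 1.02, 0.694 and 0.733 CPM in the Lpr kidneys and at 0.316, 0.876, 0.863 and 0.520 CPM in the DNase kidneys. In both genes the MRL/lpr groups overlapped. Tmem61, Zpld1 and the olfactory receptor gene Olfr1033 kept 1.45%, 2.68% and 5.51% of Ctr means of 4.24, 2.97 and 1.81 CPM.

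Of 31 other Cfap genes 14 were tested. Between Lpr and Ctr, Cfap20dc was lower (-2.70 ± 0.36 on the log2 scale, adjusted p = 0.00218, edgeR) and Cfap54 was higher (2.45 ± 0.41, adjusted p = 0.00618, edgeR). Relatives were taken by the letters of the symbol, and stems with over 60 genes (Tmem, Atp and Zfp) were left out. Of the 142 relatives in the other families, 65 were tested, of which 1 was lower and 3 were higher between Lpr and Ctr. Over all 16074 genes tested in that comparison 1.13% were lower and 4.65% were higher, 5.78% in all. Between DNase and Ctr 2 of 65 were lower and 4 higher, beside 1.45% and 4.56% of 16100 genes, 6.01% in all. Fgl2, the relative of Fgl1 known as an immune-regulating protein of T cells and macrophages, was among the higher ones, at 8.58 ± 3.15 CPM in Ctr and 57.7 ± 32.4 in Lpr (2.70 ± 0.46 on the log2 scale, adjusted p = 0.00684, edgeR).

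The genes that came closest to a complete absence were lncRNAs and LOC68395. Gm43305 (chr14:54292441-54297488, minus strand) stood at 16.7, 7.23 and 66.7 CPM in the Ctr kidneys, at 0.0557, 0.0269, 0 and 0.0586 CPM in the Lpr kidneys and at 0.0287, 0, 0 and 0 CPM in the DNase kidneys, which is no more than 2 counts in any of them. Its mean was at least 364.7-fold higher in Ctr, when the MRL/lpr level is set to 3 counts per library, and the Ctr kidneys differed widely among themselves. LOC68395, at 3.49, 7.47 and 3.51 CPM in Ctr, also had at most 2 counts, and AA388235, with 2.52, 4.09 and 3.60 CPM, at most 3. Their Ctr means were at least 58.2-fold and 41.1-fold higher on the same floor, which covers counting error only.

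Gm36130 stood at 24.1, 25 and 14.7 CPM in the Ctr kidneys, at 0.0279, 0.0807, 0.0555 and 0 CPM in the Lpr kidneys and at 0.0575, 0.141, 0.157 and 0.156 CPM in the DNase kidneys. 4930481A15Rik stood at 8.97, 12.2 and 12.5 CPM in the Ctr kidneys, at 0.223, 0.0538, 0.0832 and 0.146 CPM in the Lpr kidneys and at 0.115, 0.0565, 0.0262 and 0 CPM in the DNase kidneys. Gm31369 stood at 16.2, 14.8 and 7.32 CPM in the Ctr kidneys, with between 0 and 0.112 CPM in Lpr and between 0 and 0.183 CPM in DNase kidneys. These 3 lncRNAs were at a few counts or none in each MRL/lpr kidney, where groups cannot be told apart at this depth.

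The 18 lncRNAs kept a median of 5.80% of their Ctr level, with a range from 0.0703% to 16.1%, and the 19 protein-coding genes a median of 6.76%, from 1.45% to 21.2%. In Ctr kidneys 4 of the lncRNAs and 6 of the protein-coding genes exceeded 10 FPKM, while 2 of the lncRNAs and 4 of the protein-coding genes were under 1 FPKM. 2610507I01Rik stood at 14.9, 15.5 and 18.8 CPM in the Ctr kidneys, at 0.669, 0.215, 0.389 and 0.645 CPM in the Lpr kidneys and at 1.18, 0.706, 0.680 and 0.624 CPM in the DNase kidneys. The other lncRNAs, 2610035D17Rik, 4930412C18Rik, 1110019D14Rik, Gm11695, A230056P14Rik, Panct2, Gm39742, C920006O11Rik, LOC115486907, 3110045C21Rik, Gm51631 and Gm10516, had Ctr means between 1.61 and 14.7 CPM, and kept between 2.60% and 16.1% of them.

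The members nearest to the ratio of 4 were, from the inside, Gm10516 at 4.12, Gm51631 at 4.17, Gdpd3 at 4.22, D2hgdh at 4.27 and 3110045C21Rik at 4.61. The nearest genes outside were Pttg1 at 3.96, Gm26782 at 3.66, Ttyh1 at 3.64, Etohd2 at 3.62 and Afp, alpha-fetoprotein, at 3.47. Pttg1, securin, was at 42.9, 38.2 and 43.0 CPM in Ctr and missed the ratio through Lpr replicate 3, at 9.63 CPM beside 2.58 to 4.39 CPM in the 7 other MRL/lpr kidneys. The set has no gap at its edge. Gm10516 stood at 4.38, 5.83 and 4.45 CPM in Ctr, at 0.752, 0.726, 0.666 and 0.820 CPM in Lpr and at 1.06, 0.735, 0.837 and 0.702 CPM in DNase kidneys. Gm51631 stood at 2.65, 2.54 and 1.5 CPM in Ctr, at 0.306, 0.108, 0.361 and 0.0586 CPM in Lpr and at 0.230, 0.339, 0.157 and 0.312 CPM in DNase kidneys. Both lncRNAs entered the set with levels left of 16.1% and 10.5%.

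By position, 8 of the genes lay on chromosome 1, 8 on chromosome 11, 3 on chromosome 7 and no more than 2 on any other. Of the 12580 well covered genes 5.77% are on chromosome 1 and 8.39% on chromosome 11. Of the 37 genes with a position, 9 had another within 2 Mb, while 10.0% of the other well covered genes lay within 2 Mb of one of the 37. The closest were Apoa2 and Cfap126, 94607 bases apart, Gm39742 and Gm10516, 206662 bases apart, and Gm11695 and Smim6, 448302 bases apart. No member was next to another in the order of genes.

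The genes on either side were chosen by position and were tested. Of the 221 genes in the 3 places on each side that are not members, 161 had enough counts in Lpr and Ctr kidneys. Between Lpr and Ctr 8 of them were lower, 4.97%, and 9 were higher, 5.59%, beside 1.13% and 4.65% over all genes tested. Their median log2 fold change was 0.01, beside 0.03 over all genes. The total of 17 was 11 without Ctr replicate 1 and also 11 without Ctr replicate 2. In the DNase kidneys 10 of 161 were lower than in Ctr, 6.21%, and 11 were higher, 6.83%, beside 1.45% and 4.56%. The lower ones of both comparisons include Cyp2c23, which passed the ratio itself and was left out of the members by its symbol.

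**Figure D3:**
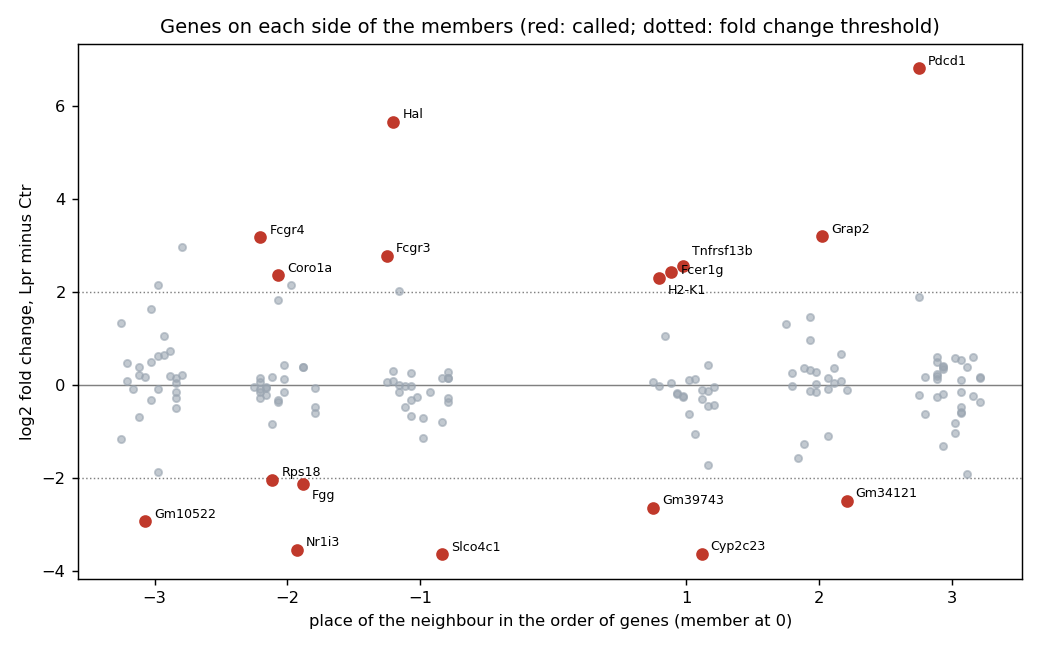
log2 fold change between Lpr and Ctr kidneys for the genes in the 3 places on each side of a member, by place in the order of genes, with called genes in red and named. Of 161 genes most lie near 0, 8 were called lower and 9 higher, with Hal and Pdcd1 the highest.

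Among the lower neighbours, 3 adjoined a member directly. Slco4c1, an organic anion transporter of the proximal tubule, overlaps the lncRNA Panct2 head to head on chromosome 1 (chr1:96816270-96872193, with Panct2 at chr1:96871126-96881234). It stood at 7.03, 3.32 and 2.98 CPM in Ctr, at 0.334, 0.484, 0.111 and 0.527 CPM in Lpr and at 0.604, 0.452, 0.758 and 0.338 CPM in DNase kidneys, a log2 fold change of -3.65 ± 0.52 (adjusted p = 0.00299, edgeR) between Lpr and Ctr. Panct2 itself was at 3.31, 2.66 and 2.33 CPM in Ctr, and between 0.111 and 0.242 CPM in Lpr and 0.182 and 0.424 CPM in DNase kidneys. Both genes of the pair were low in all MRL/lpr kidneys, and since the handling of strand is not given, reads of the 1068 shared bases could have been counted for either.

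Cyp2c23, an arachidonic acid epoxygenase of the kidney tubule, lies 18470 bases from Cpn1. It stood at 77.2, 79.7 and 49.0 CPM in Ctr, at 5.38, 5.54, 3.91 and 8.09 CPM in Lpr and at 9.46, 7.74, 12.2 and 9.85 CPM in DNase kidneys. Its log2 fold change was -3.63 ± 0.27 between Lpr and Ctr and -2.90 ± 0.20 between DNase and Ctr. Cyp2c23 also passed the ratio and is left out of the 38 by its symbol alone, so these values are a description, as for the members. The next gene along, Erlin1, an endoplasmic reticulum protein, was at 106 ± 9.44 CPM in Ctr and 36.5 ± 5.15 in Lpr (-1.57 ± 0.18 on the log2 scale, adjusted p = 0.00132, edgeR), under the fold change threshold.

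Gm39743, 3654 bases from Gm39742, fell by 2.64 on the log2 scale (SE 0.61, adjusted p = 0.027, edgeR), a call lost when any 1 Ctr library or Lpr replicate 2 was left out (adjusted p from 0.0729 to 0.0928). The gamma chain of fibrinogen, Fgg, 2 places from Fgb, was at 10.5, 10.4 and 8.02 CPM in Ctr and at 0.724, 1.99, 4.72 and 1.32 CPM in Lpr (-2.14 ± 0.57, adjusted p = 0.0492, edgeR), a call lost when any 1 library other than Lpr replicate 3 was left out (adjusted p from 0.0739 to 0.148). Fga, the alpha chain, was at 25.4 ± 5.19 CPM in Ctr and 23.5 ± 9.25 in Lpr (-0.15 ± 0.32, adjusted p = 0.836, edgeR), and its Ctr and Lpr kidneys overlapped. Nr1i3, a nuclear receptor that lies 2 places from Apoa2, was at 0.602 ± 0.168 CPM in Ctr and 0.0489 ± 0.0796 in Lpr (-3.55 ± 0.92, adjusted p = 0.0432, edgeR), a call lost under the same omissions (adjusted p from 0.0837 to 0.152). The other lower neighbours were Gm10522 (-2.94 ± 0.46), Gm34121 (-2.49 ± 0.67) and Rps18 (-2.04 ± 0.43). Gm34121 and Rps18 lost the call under these omissions too, Rps18 in part through the fold change threshold.

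Hal was 1 of the 9 higher neighbours, and the other 8 were genes known from blood cells or antigen presentation: the Fc receptors Fcgr3 and Fcgr4 near Cfap126, their signalling chain Fcer1g beside Apoa2, Tnfrsf13b, a receptor of B cells, beside Kcnj12, Coro1a near Gdpd3, Grap2 near Gm31369, Pdcd1 near D2hgdh and H2-K1 beside AA388235. Their log2 fold changes between Lpr and Ctr ran from 2.31 for H2-K1 to 6.81 for Pdcd1, and the call of Grap2 was lost when any 1 Ctr library was left out (adjusted p from 0.073 to 0.0821). Markers of some blood cells also differed in the same kidneys. Of 4 tested in each list, 1 of B cells, 2 of plasma cells and 2 of neutrophils were called higher in Lpr than in Ctr. Of 4 erythroid genes other than Hba-a2, 0 were called. All 7 T cell markers were higher in Lpr than in Ctr, with a summed level of 78.6 to 172.6 CPM against 5.0 to 7.4 CPM, and 5 of 6 macrophage markers were higher, at 975 to 1970 CPM against 144 to 209 CPM. In the DNase kidneys the sums were 81.7 to 133.7 CPM and 751 to 1467 CPM. Between DNase and Ctr 4 of 5 skeletal muscle markers were lower, with a summed level of 9.86 to 27.6 CPM in Ctr, 9.38 to 14.8 CPM in Lpr and 2.04 to 7.22 CPM in DNase kidneys, and so was 1 of 5 adipose markers tested. The part of any of these cells in the members' values was not tested.

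Markers of kidney cells were set beside the losses. The lists of proximal tubule, loop of Henle, distal convoluted tubule, collecting duct, podocyte and endothelium had 12, 6, 6, 9, 6 and 6 markers tested. Among them 1 was called between Lpr and Ctr, beside 5.78% of all genes tested. It was the proximal tubule transporter Slc7a13, which was higher (2.41 ± 0.60, adjusted p = 0.0379, edgeR). That call was lost when any 1 Ctr library or Lpr replicate 1 was left out (adjusted p from 0.0873 to 0.141). Median log2 fold changes, in the order of the lists, were -0.34, -0.19, -0.80, -0.27, -0.44 and -0.27, beside 0.03 over all genes. The summed proximal tubule markers ranged from 23903 to 25570 CPM in Ctr, from 12528 to 25854 in Lpr and from 14635 to 20543 in DNase kidneys. None of the 38 genes is in any of these lists. The distal convoluted tubule sum was 1453 to 1579 CPM in Ctr, 675 to 1165 CPM in Lpr and 974 to 1371 CPM in DNase kidneys, without overlap with Ctr. The loop of Henle sum was 8348 to 9141 CPM in Ctr, 5527 to 7938 CPM in Lpr and 7010 to 11551 CPM in DNase kidneys. The podocyte sum was 760 to 815 CPM in Ctr, 371 to 763 CPM in Lpr and 749 to 837 CPM in DNase kidneys. For endothelium it was 567 to 727 CPM in Ctr, 445 to 626 CPM in Lpr and 476 to 669 CPM in DNase kidneys. Of these sums, only that of the distal convoluted tubule was apart from Ctr in both Lpr and DNase kidneys. Its part in the members' values was not tested.

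The choice of genes did not use the difference between DNase and Lpr kidneys. It did hold both groups below the lowest Ctr value by the ratio of 4. A gene that rose near Ctr under DNase I could therefore not be among the 38. In the MRL/lpr kidneys 19 of the 38 genes had enough counts to be tested, and the other 19 had not. Between DNase and Lpr kidneys 0 of the 19 were called (edgeR), as 0% of all 15832 genes tested were. At an unadjusted p under 0.05 there was 1 of 19 members, 3110045C21Rik, beside 5.6% of all genes. Without a filter on low counts all 38 were fitted, with 1 under 0.05, beside 5.1% of all genes. It was a different gene, Camk2b, lower in DNase kidneys by a log2 value of -2.09 ± 0.79 on very few counts. DESeq2 called 4 genes, none of them a member. The 19 had a median log2 fold change of 0.24, beside -0.02 over all genes, and 14 of them, 73.7%, had a positive value, beside 47.1% of all genes. Without the filter on low counts 21 of the 38 had a positive value. The standard errors of the 19 ran from 0.18 to 0.59, and their median of 0.41 was above that of the differences. Leaving out Lpr replicate 2 brought this median to 0.0941, and leaving out Lpr replicate 3 to 0.121, so its size rests on single kidneys.

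**Figure D4:**
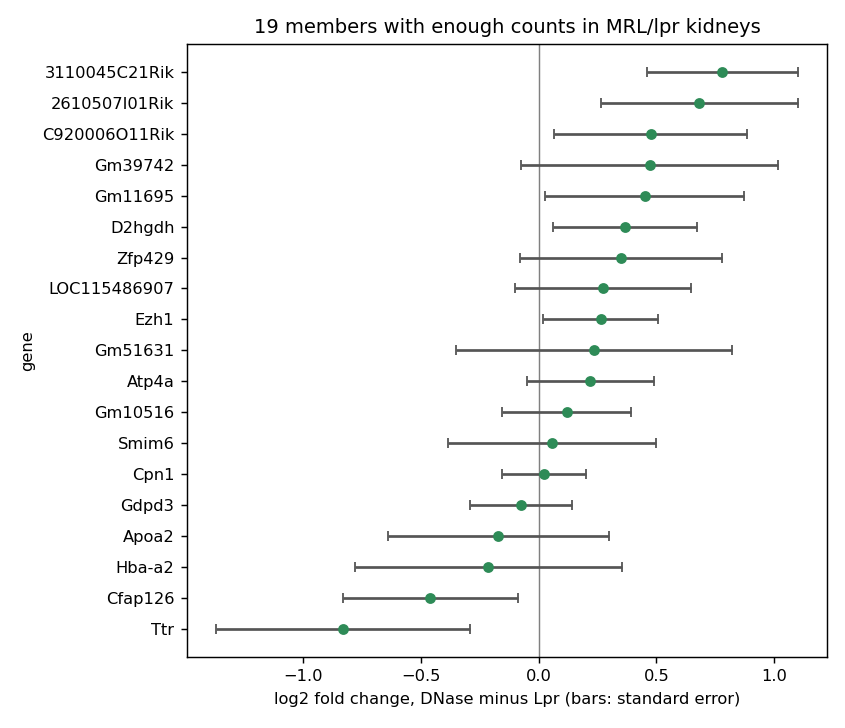
log2 fold change between DNase and Lpr kidneys (4 each) of the 19 genes with enough counts, with bars for the standard error. The values run from -0.83 for Ttr to 0.78 for 3110045C21Rik, and no gene passed the threshold after adjustment over all genes.

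The lncRNA 3110045C21Rik (chr1:169969409-169972396) was at 5.43, 5.77 and 5.90 CPM in Ctr, at 0.697, 0.350, 0.555 and 0.557 CPM in Lpr and at 1.18, 1.02, 0.785 and 0.884 CPM in DNase kidneys. It was the 1 gene of the 38 whose Lpr and DNase kidneys did not overlap, beside 3.05% of all 25677 genes in either direction and 2.07% in its own. Its log2 fold change was 0.78 ± 0.32 (adjusted p = 0.854, edgeR), and every DNase kidney lay far below Ctr, as the choice of genes requires. The next smallest p-values were those of 2610507I01Rik (0.68 ± 0.42), Ttr (-0.83 ± 0.54), Cfap126 (-0.46 ± 0.37) and D2hgdh (0.37 ± 0.31), each with an adjusted p of 0.854 (edgeR).

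How far the counting itself could mix genes was looked at in the annotated transcripts of GENCODE vM21. Of the 38 genes 32 were in that set by symbol, and 22 of them shared no 100-base window with a transcript of another gene. More than 10% was shared by Hba-a2 with Hba-a1, by A230056P14Rik with Nipa1 and another gene (32.2%) and by D2hgdh with Gm18666 and another gene (14.0%). In gene positions 13 members overlap another gene of the data, such as Gm11695 with Slc16a5, Apoa2 with Tomm40l and Smim6 with Recql5. Partners differed in how much of their level they kept: Slc16a5 had means of 30.97, 20.9 and 20.1, Tomm40l of 49.1, 52.4 and 48.3, and Recql5 of 16.7, 13.3 and 15.1 CPM in Ctr, Lpr and DNase. Others were lower together with the member, among them Slco4c1 above, Tmem169, which overlaps Gm51631, with 9.12, 5.42 and 2.99 CPM, and LOC115487747, which overlaps 2610035D17Rik, with 0.382, 0.00694 and 0 CPM. Reads were placed on the genome of the control strain, and its part in the low counts of MRL/lpr kidneys was not tested.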

How the data were processed

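Kidneys of 3 C57BL/6 mice (Ctr), 4 MRL/lpr mice (Lpr) and 4 DNase I-treated MRL/lpr mice (DNase) were compared, as grouped by the sample titles. The authors deposited raw counts per gene, and FPKM values, from 100 bp paired-end reads. The submitters' processing notes name fastp, HTSeq, DESeq2, R 3.2.0 and the mm10 build. The study's methods credit the alignment to HTSeq, which counts reads. Another aligner, the annotation and the handling of strand and of multiply matching reads are not given in the sources used here. All 11 columns of each file were used, and no columns were left out.

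CPM was each count over its column sum, with the usual scaling. Counts were tested with edgeR 4.0.16 (quasi-likelihood, TMM scaling, filterByExpr, Benjamini-Hochberg adjustment over all genes tested), and a gene was called when its adjusted p was under 0.05 with a log2 fold change beyond 2 in size, the study's thresholds. DESeq2 1.42.0 and limma 3.58.1 were alternatives. The test was tried on simulated counts with known changes. Each p-value sets the difference between 2 groups against the spread between kidneys of 1 group, taken as separate mice. Positions and kinds came from RefSeq on GRCm38.p6, which held 24856 of the 25677 symbols. Neighbours were counted among genes of the data.

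The 38 genes, the gene lists and the tests were chosen with earlier results of these data known. Members with a value for every kidney were the 10 protein-coding genes with the highest Ctr FPKM and those with the 5 largest ratios. The rule also took the 5 just inside the ratio and the 5 genes just outside it. Those beside another member and the 5 with the smallest p between DNase and Lpr were added. Neighbours and relatives called between Lpr and Ctr were named, while most of those called only between DNase and Ctr were counted. Amdhd1, Kcnj12, Fgb, Fgl1, Panct2, AA388235 and the other genes outside this rule were chosen after their values were seen.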

Additional observations from a re-analysis of the deposited data

Results flagged for a closer look

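Dixon's ratio was taken in 46 groups of 4 MRL/lpr kidneys, for the members named by the rule and for Hba-a1, Hal, Erlin1 and Slco4c1. In 6 groups a kidney stood apart from the other 3. Chance flags about 5% of groups when values are normally distributed and groups are independent. These groups share kidneys and some hold counts near 0, so the 6 cannot be set against that rate. D2hgdh was at 2.64 CPM in Lpr replicate 3 and between 8.00 and 8.76 CPM in the other Lpr kidneys. Gdpd3 was at 2.06 CPM in Lpr replicate 1 and between 2.80 and 2.90 CPM in the others. 2610507I01Rik was at 1.18 CPM in DNase replicate 1 and between 0.624 and 0.706 CPM in the others. The last 3 rest on very few counts: Gm36130 at 0.0575 CPM in DNase replicate 1, Gm43305 at 0.0287 CPM in the same kidney and LOC68395 at 0.0283 CPM in DNase replicate 2. The other DNase kidneys had 0 counts for Gm43305 and LOC68395, and such a group is always flagged.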

How the results depend on the processing

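The choice of the 38 genes depended on the threshold more than on the scaling. TMM or DESeq2 size factors, or FPKM in place of CPM, also gave 38 genes, of which 37, 37 and 38 were shared. A ratio of at least 8 left 18 genes, a count minimum of 20 gave 58, and leaving out 1 library gave 38 to 49. Between DNase and Lpr kidneys DESeq2 called 4 genes in place of 0, and leaving out any 1 library gave 0. An adjusted p alone, without the fold change, gave 1639 genes between Lpr and Ctr in place of 929 and 3493 between DNase and Ctr in place of 967, and leaving out 1 library gave 663 to 969 and 869 to 1042. The members' median log2 fold change between DNase and Lpr was 0.0851 without a filter on low counts (38 genes tested) and 0.0891 by limma on log2(FPKM + 1), in place of 0.24, and 0.0941 to 0.283 with 1 library left out. Of the neighbouring genes 8 were called with 1 neighbour on each side, where fewer genes are tested, and 27 by the adjusted p alone, in place of 17, and leaving out 1 library gave 11 to 21. Of 25 genes called between Lpr and Ctr and named here, 16 kept their call in all 12 alternative fits and 9 lost it in some, Uroc1 and Slc7a13 among them. Of 14 others that were not called, Hba-a1 gained a call in 2 fits and Alb in 1. Direction turned in 6 genes that were not called. With 1 library left out the log2 fold change ran from -0.807 to 0.664 for Atp12a (above 0 without Ctr replicate 3), from -0.383 to 0.0617 for Fga (without Lpr replicate 4), and from -0.369 to 0.0307, -0.309 to 0.0687 and -0.42 to 0.079 for Kcnj1, Kcnj10 and Kcnj15 (without Lpr replicate 3). For Kcnj16 it ran from -0.141 to 0.214, with -0.00856 under DESeq2 size factors or DESeq2. The replicate block gave 0.177 for Atp12a, 0.061 for Fga and -0.143 for Kcnj16.

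The replicate numbers do not pair the samples: correlations of deviations between samples of 1 number ran from -0.277 to 0.159. With the replicate block 0 genes were called between DNase and Lpr, 870 between Lpr and Ctr and 839 between DNase and Ctr, the members' median was 0.30, and 16 neighbours were called, an alternative added after the data were seen. Levels at a few counts, as in Gm31369 or LOC68395, cannot show a difference between Lpr and DNase at this depth.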
